A study of Mus musculus with 20 samples.

Results

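Voltage-gated sodium and calcium channels carry the currents that start and shape the action potential and that couple it to transmitter release. Their genes were taken by symbol: every gene beginning with Cacna1 (pore-forming subunits of calcium channels), Cacna2d (the extracellular alpha2delta subunits) or Cacnb (the cytoplasmic beta subunits), and every gene named Scn with a number and the letter a (pore-forming alpha subunits of sodium channels) or b (their beta subunits). The rule found 32 of the 39179 genes in the count tables, namely 10 Cacna1, 4 Cacna2d, 4 Cacnb, 10 Scn alpha and 4 Scn beta genes. The rule itself used symbols and no measured value, but the channel genes were chosen with earlier results of these data known.

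RNA was sequenced from the bilateral striatum of 20 adult male mice, 5 in each of 4 groups, formed by line (Control or High-Active) and injection (saline or amphetamine). High-Active is a line bred for high home cage activity, here at generation 17, and Control is the unselected line from the same intercross of inbred strains. At an age of about 6.5 months each mouse received 1 intraperitoneal injection of saline or of d-amphetamine sulfate at 0.25 mg/kg, and the tissue was taken 2 hours later. There was 1 selected and 1 unselected line, so that selection and chance divergence of the lines cannot be told apart. The labels also gave the parents: 5 pairs had borne the 10 High-Active mice, of which 9 had a full sibling in the study, and 8 pairs the 10 Control mice, of which 4 had one.

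In a neuron, sodium channels cluster at the axon initial segment and the nodes, where they set the threshold for firing. Calcium channels of the N, P/Q and R types open at presynaptic terminals and admit the calcium that triggers vesicle fusion, L-type channels couple depolarization to calcium signals in the cell body and dendrites, and T-type channels open near rest. The alpha2delta and beta subunits bring calcium channel pores to the membrane and tune their gating, and the sodium channel beta subunits do the same for sodium channels and also act as adhesion molecules. The striatum consists mostly of medium spiny neurons, inhibitory projection neurons that receive glutamatergic input from the cortex.

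The reads assigned to genes ranged from 32388971 to 53710713 among the mice (median 41703854). Of the 32 channel genes, 29 exceeded 1 CPM (counts per megaread assigned to genes) in 3 or more mice before TMM scaling and were tested among 14792 genes. The CPM values given below are after TMM scaling. The tissue label was checked by marker genes. All 11 medium spiny neuron markers were detected, with a summed level of 5099 to 8404 CPM per mouse. All 9 markers of cortical excitatory neurons were also detected, with none at 0, and their summed level ran from 296 to 829 CPM in Control saline mice, from 607 to 831 in Control amphetamine mice, from 163 to 342 in High-Active saline mice and from 217 to 968 in High-Active amphetamine mice. The cortical marker score, the mean log2 CPM of these genes, was thus lowest in High-Active saline mice (3.44 ± 0.446, SD, n = 5) and higher in Control saline (4.35 ± 0.70), High-Active amphetamine (4.495 ± 0.799) and Control amphetamine mice (4.87 ± 0.138). It moved with both line and treatment, and 3 of the 9 cortical markers were called between the lines, all lower in High-Active mice. Of the other lists, 3 of 6 astrocyte markers (2 higher, 1 lower), 2 of 5 microglia markers (lower) and 2 of 9 oligodendrocyte markers (higher) were called, and 0 of 11 medium spiny neuron, 6 striatal interneuron, 3 oligodendrocyte precursor, 5 endothelial and 4 choroid plexus markers. Of all genes tested, 14.5% were called in either direction. Calls are therefore also given with the cortical score in the model, and fold changes with it for some of the genes. The fold changes within amphetamine mice, those of amphetamine within each line and those of the interaction are given only without it. Beyond these fits the part of such cells in a channel difference was not tested, and in bulk tissue fewer cells of a type and less RNA per cell cannot be told apart.

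Per kilobase of exon, the striatum held the highest levels for auxiliary subunits rather than pores. Levels between genes are compared as RPKM (CPM divided by the exonic length in kilobases), over all 20 mice. Scn4b, the beta subunit linked to resurgent sodium current and known to be abundant in striatum, had the highest level at 155 RPKM ± 27.2 (SD). Scn2b, another sodium channel beta subunit, had 73.1 ± 4.58. Lower were the calcium channel beta subunits Cacnb3 (42.9 ± 6.45), Cacnb1 (35.3 ± 4.00) and Cacnb4 (33.3 ± 3.82), and the sodium channel subunit Scn3b (33.1 ± 2.61). In all, 18 genes were over 10 RPKM, 6 lay between 1 and 10, and 8 were at 1 RPKM or under.

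Among the pores, Scn2a (25.8 RPKM ± 3.21), Scn8a (17.5 ± 2.22) and Scn1a (15.02 ± 2.03), the sodium channels of central neurons, were highest, and Scn3a, an alpha subunit best known from the developing brain, was lower (7.88 ± 0.758). The next 5, all calcium channel pores, lay close together: Cacna1h and Cacna1i of the T type (13.3 ± 1.69 and 12.5 ± 1.72), Cacna1e of the R type (13.2 ± 1.81), Cacna1a of the P/Q type (13.1 ± 1.36) and Cacna1b of the N type (12.0 ± 0.919). Their SDs overlapped, so that no order among these is given. Below them were Cacna1g of the T type (6.72 ± 1.14) and the L-type pores Cacna1d (4.42 ± 0.352) and Cacna1c (3.39 ± 0.443). The exonic length sums all annotated exons, which lowers the RPKM of genes with many rarely used exons; Cacna1e has 25228 such bases.

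Of the alpha2delta subunits, Cacna2d3 was highest (23.0 RPKM ± 2.91). Cacna2d2 (16.3 ± 2.91) and Cacna2d1 (14.8 ± 1.91) lay lower, and the SDs of these 2 genes overlapped. Cacnb2 was the lowest calcium channel beta subunit (7.27 ± 0.734). Genes known mainly from other tissues were scarce. Scn9a, a channel of sensory neurons, reached 0.875 RPKM ± 0.266. Scn7a, an atypical sodium-sensing alpha subunit, had 0.435 ± 0.189, Cacna1s of skeletal muscle 0.235 ± 0.0644, Cacna2d4 of the retina 0.192 ± 0.0736 and Scn10a of sensory neurons 0.14 ± 0.117. The 3 genes below the filter were Scn11a, another sensory neuron channel (11 to 55 reads per mouse), Cacna1f of the retina (1 to 9 reads) and Scn4a of skeletal muscle (0 to 3 reads).

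**Figure D1:**
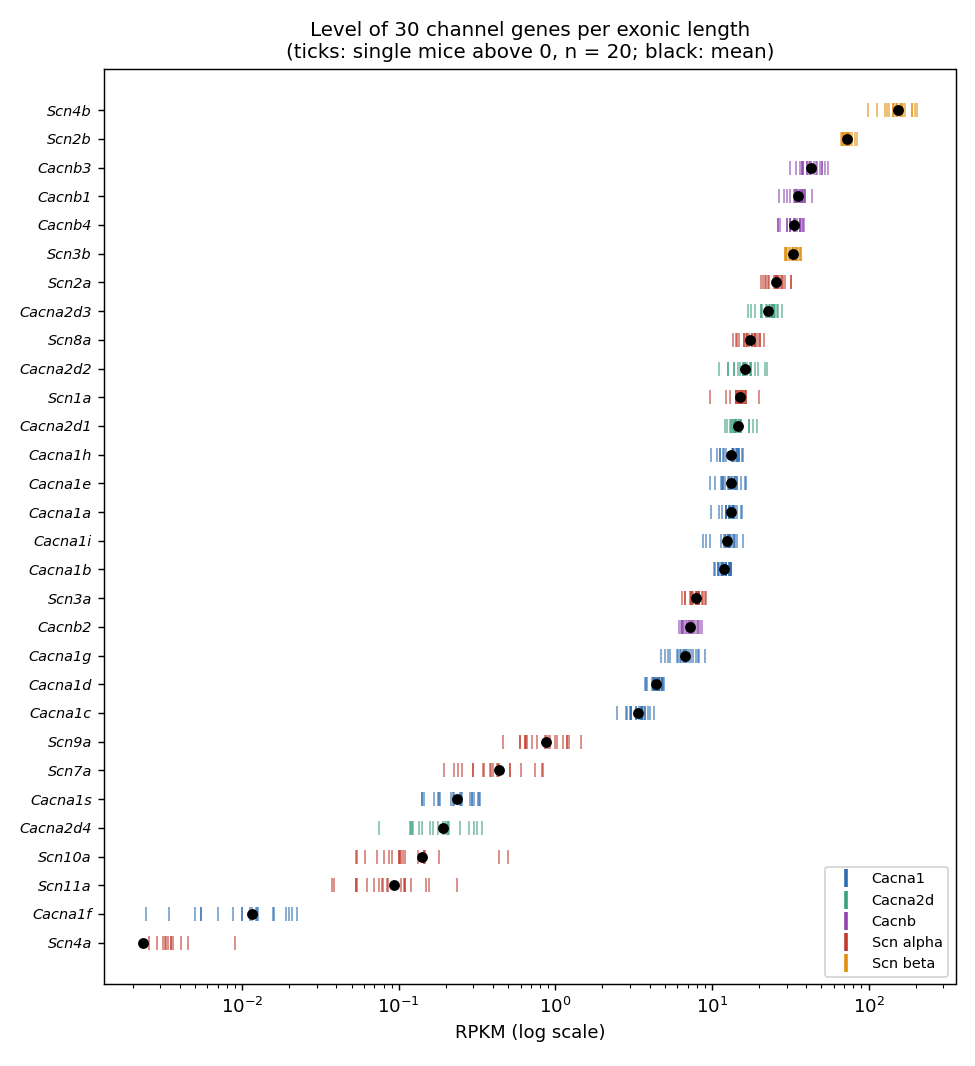
Level of 30 of the 32 channel genes on a log axis in RPKM, 1 tick per mouse with a value above 0 and a black point at the mean of 20 mice; colour marks the gene family. Scn4b and Scn2b stand at the top, at 155 and 73.1 RPKM on average, and 8 genes are at 1 RPKM or under.

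The spread among the 20 mice was smallest for Scn2b (SD 6.27% of the mean CPM), Cacna1b (7.69%), Scn3b (7.88%) and Cacna1d (7.96%). It was larger for Cacna2d2 (17.8%) and Scn4b (17.6%), although these were well counted, and largest among tested genes for the scarce Scn10a (83.3%) and Scn7a (43.4%).

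The first question was whether the channel genes differed between the lines, averaged over both treatments. In High-Active mice 4 channel genes were lower, Cacna1b, Scn2a, Scn3b and Scn8a, with levels 0.872 to 0.908 times those of Control mice, and 2 scarce genes were higher, Scn7a and Scn10a (edgeR quasi-likelihood test, Benjamini-Hochberg adjusted p under 0.1 over all genes). The lower genes were 13.8% of the 29 tested, against 6.9% of all genes tested, and the higher ones 6.9% against 7.63%, so the share called higher was near the background. Scn10a passed the filter with the help of High-Active mice, so its call is not independent of the filter. At an unadjusted p under 0.05 there were 14 channel genes (48.3%, against 26.1% of all genes), and DESeq2 called 11 (37.9% against 19%). Fold changes were negative for 18 and positive for 11 genes, with a median log2 fold change of -0.06 against -0.00093 over all genes. No channel gene separated the 10 mice of one line from the 10 of the other, as 0.264% of all genes did.

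**Figure D2:**
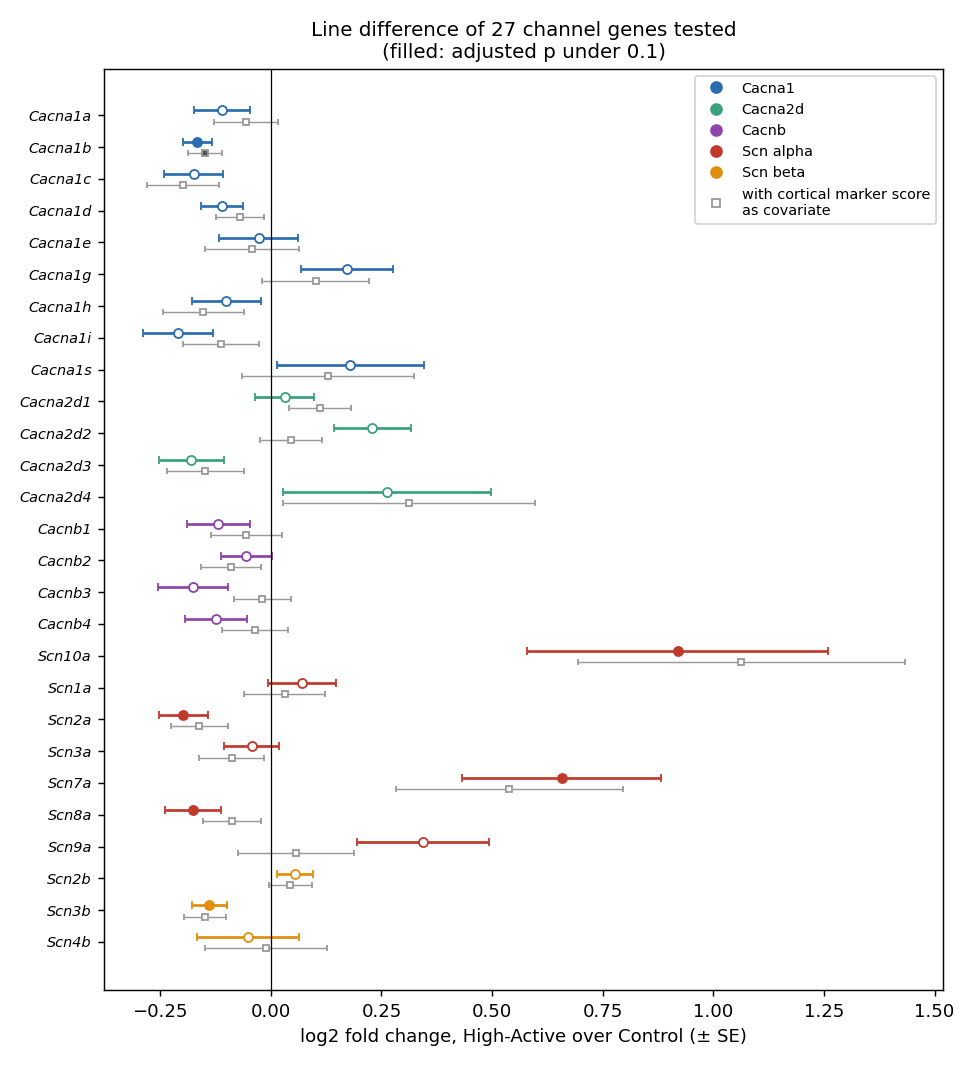
Log2 fold change of High-Active over Control ± SE for 27 of the 29 channel genes tested (circles, coloured by family, filled where the adjusted p was under 0.1), with the value from the model that holds the cortical marker score as a covariate in grey squares. Cacna1b, Scn2a, Scn3b and Scn8a are filled on the negative side and Scn7a and Scn10a on the positive side, and Cacna1b is the 1 filled grey square.

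Cacna1b (ENSMUSG00000004113, chromosome 2, 24603887 to 24763152 on the minus strand of GRCm38) encodes the pore of the N-type channel, one of the main calcium entry routes at presynaptic terminals. In the Control mice its level ran from 115 to 132 CPM with a median of 127, and in the High-Active mice from 102 to 123 CPM with a median of 112. All 10 High-Active mice were below the Control median and 7 were below every Control mouse. The means were 126 CPM ± 5.64 and 112 ± 6.37 (SD, n = 10), a log2 fold change of -0.17 (SE 0.0334, adjusted p = 0.00672), which ranked 188 of 14792 genes. The difference was -0.16 in saline and -0.17 in amphetamine mice. It was -0.15 with the cortical score in the model (adjusted p = 0.0648) and -0.15 with the counts of mice of the same parents summed (adjusted p = 0.0483).

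Scn2a (ENSMUSG00000075318, chromosome 2, 65620771 to 65767447, plus strand) encodes an alpha subunit of excitatory and striatal projection neurons. The Control mice ran from 294 to 406 CPM with a median of 344, and the High-Active mice from 262 to 362 CPM with a median of 304. Of the High-Active mice, 9 were below the Control median and 5 below every Control mouse. Means were 351 CPM ± 35.8 and 305 ± 33.2 (SD, n = 10), with a log2 fold change of -0.20 (SE 0.0553, adjusted p = 0.0365). The value was -0.16 with the cortical score (adjusted p = 0.243) and -0.16 with siblings summed (adjusted p = 0.312), and neither passed the threshold.

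Scn3b (ENSMUSG00000049281, chromosome 9, 40269217 to 40291618, plus strand) encodes a noncovalently bound beta subunit of sodium channels. Control mice spanned 171 to 202.6 CPM with a median of 189, and High-Active mice 160 to 202.9 CPM with a median of 167. High-Active saline mouse 483, at 202.9 CPM, was just above every Control mouse, while 6 High-Active mice were below every one. Means were 189 CPM ± 8.97 and 172 ± 13.4 (SD, n = 10), with a log2 fold change of -0.14 (SE 0.0398, adjusted p = 0.0409). With the cortical score the value was -0.15 (adjusted p = 0.133), and with siblings summed -0.13 (adjusted p = 0.114).

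Scn8a (ENSMUSG00000023033, chromosome 15, 100869858 to 101045938, plus strand) encodes the main alpha subunit of mature axon initial segments and nodes. Control mice spanned 252 to 340 CPM with a median of 290.3, and High-Active mice 216 to 319 CPM with a median of 257. The lines overlapped more than for the genes above, with 7 High-Active mice below the Control median and 5 below every Control mouse. Means were 292 CPM ± 27.6 and 259 ± 34.9 (SD, n = 10), with a log2 fold change of -0.18 (SE 0.0635, adjusted p = 0.0916). The difference was -0.09 with the cortical score (adjusted p = 0.585) and -0.13 with siblings summed (adjusted p = 0.417). Leaving out any 1 of mice 197, 369, 407, 411, 415, 448, 454, 487, 871, 883 or 886 also ended the call (adjusted p from 0.104 to 0.161).

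Promoters of the lower genes are shown because these genes passed the test in the same direction. RefSeq promoters (GRCm38.p6) cover 250 bases before to 50 after an annotated start, and 24 of the 32 channel genes had one, with the start nearest to the gene's 5′ end used. For Scn8a that start lay 787 bases from the 5′ end of the annotated gene. It lay farther away for Cacna1e (158581 bases), Scn4a (3898), Cacnb3 (1488) and Cacnb2 (1218), whose windows are counted in the motif shares below. Scn3b had no entry. On both strands, 6 short motifs were searched: the GC box GGGCGG, the cAMP response element TGACGTCA, the AP-1 site TGANTCA, the TATA box TATAAA, the CCAAT box CCAAT and the E-box CAGCTG. Capitals mark these motifs in the sequences, 5′ to 3′.
Cacna1b, chr2:24763103-24763402, minus strand: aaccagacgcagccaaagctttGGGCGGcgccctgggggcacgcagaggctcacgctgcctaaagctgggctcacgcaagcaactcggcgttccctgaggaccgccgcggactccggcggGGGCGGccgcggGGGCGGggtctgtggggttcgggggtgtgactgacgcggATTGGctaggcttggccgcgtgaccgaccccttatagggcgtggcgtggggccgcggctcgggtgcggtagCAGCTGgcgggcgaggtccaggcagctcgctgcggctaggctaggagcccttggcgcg
Scn2a, chr2:65620519-65620818, plus strand: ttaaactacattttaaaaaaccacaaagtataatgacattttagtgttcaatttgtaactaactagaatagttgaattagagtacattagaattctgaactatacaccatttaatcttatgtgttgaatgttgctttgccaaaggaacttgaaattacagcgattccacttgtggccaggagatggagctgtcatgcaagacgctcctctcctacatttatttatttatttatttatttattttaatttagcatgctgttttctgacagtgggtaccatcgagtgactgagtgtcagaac
Scn8a, chr15:100870395-100870694, plus strand: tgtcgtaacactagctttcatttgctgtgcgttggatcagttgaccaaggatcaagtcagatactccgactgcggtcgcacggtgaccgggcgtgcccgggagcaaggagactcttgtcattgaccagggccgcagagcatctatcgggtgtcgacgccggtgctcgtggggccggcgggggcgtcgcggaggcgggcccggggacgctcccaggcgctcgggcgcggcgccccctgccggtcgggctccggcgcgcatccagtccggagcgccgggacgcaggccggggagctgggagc

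The promoters differed in base composition. That of Cacna1b had 72.3% G and C with 35 CpG dinucleotides, and that of Scn8a 70% with 38, while that of Scn2a had 33% with 3. Over all 32851 promoters the medians were 52.7% and 7. Cacna1b held 3 GC boxes, 1 CCAAT box on the other strand and 1 E-box, and the windows of Scn2a and Scn8a held none of the 6 motifs. Of the 24 channel genes, 11 held a GC box (45.8%, against 35.7% of all promoters), 7 an E-box (29.2% against 16.3%), 6 a CCAAT box (25% against 37.4%) and 1 a TATA box (4.17% against 13.6%). None held a cAMP response element or an AP-1 site in these windows, as 1.79% and 7.81% of all promoters did.

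The 2 genes called higher were scarce. Scn7a (ENSMUSG00000034810, chromosome 2, 66673425 to 66784914, minus strand) spanned 1.42 to 3.22 CPM with a median of 2.67 in Control mice, and 1.87 to 6.09 CPM with a median of 3.79 in High-Active mice. Of the High-Active mice, 6 were above every Control mouse, and reads per mouse were 54 to 303. The log2 fold change was 0.66 (SE 0.225, adjusted p = 0.0772). It was 0.54 with the cortical score (adjusted p = 0.354) and 0.37 with the medium spiny neuron score (adjusted p = 0.314), and the call was lost without any 1 of mice 197, 369, 409, 411, 415, 457, 487, 871 or 883 (adjusted p from 0.104 to 0.145).

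Scn10a (ENSMUSG00000034533, chromosome 9, 119608456 to 119719322, minus strand) spanned 0.431 to 1.17 CPM with a median of 0.709 in Control mice, and 0.423 to 3.95 CPM with a median of 0.964 in High-Active mice. High-Active saline mice 197 and 886, at 3.95 and 3.47 CPM, stood apart from the other 8, which lay at or below 1.44 CPM. Control medians were 0.723 CPM after saline and 0.694 after amphetamine, and the highest mice of these groups had 1.15 and 1.17 CPM. Entry into the test, at over 1 CPM in 3 mice, thus drew on the High-Active mice, the line in which Scn10a was then called higher. The log2 fold change was 0.92 (SE 0.341, adjusted p = 0.0989). It was 0.69 without mouse 197 (adjusted p = 0.19) and 0.75 without mouse 886 (adjusted p = 0.156), and of the 20 fits that each left out 1 mouse the call was kept in those without 454, 477, 483, 499 or 871. With the cortical score the value was 1.06 (adjusted p = 0.183), and in the likelihood-ratio test with robust weights 0.60 (adjusted p = 0.199).

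**Figure D3:**
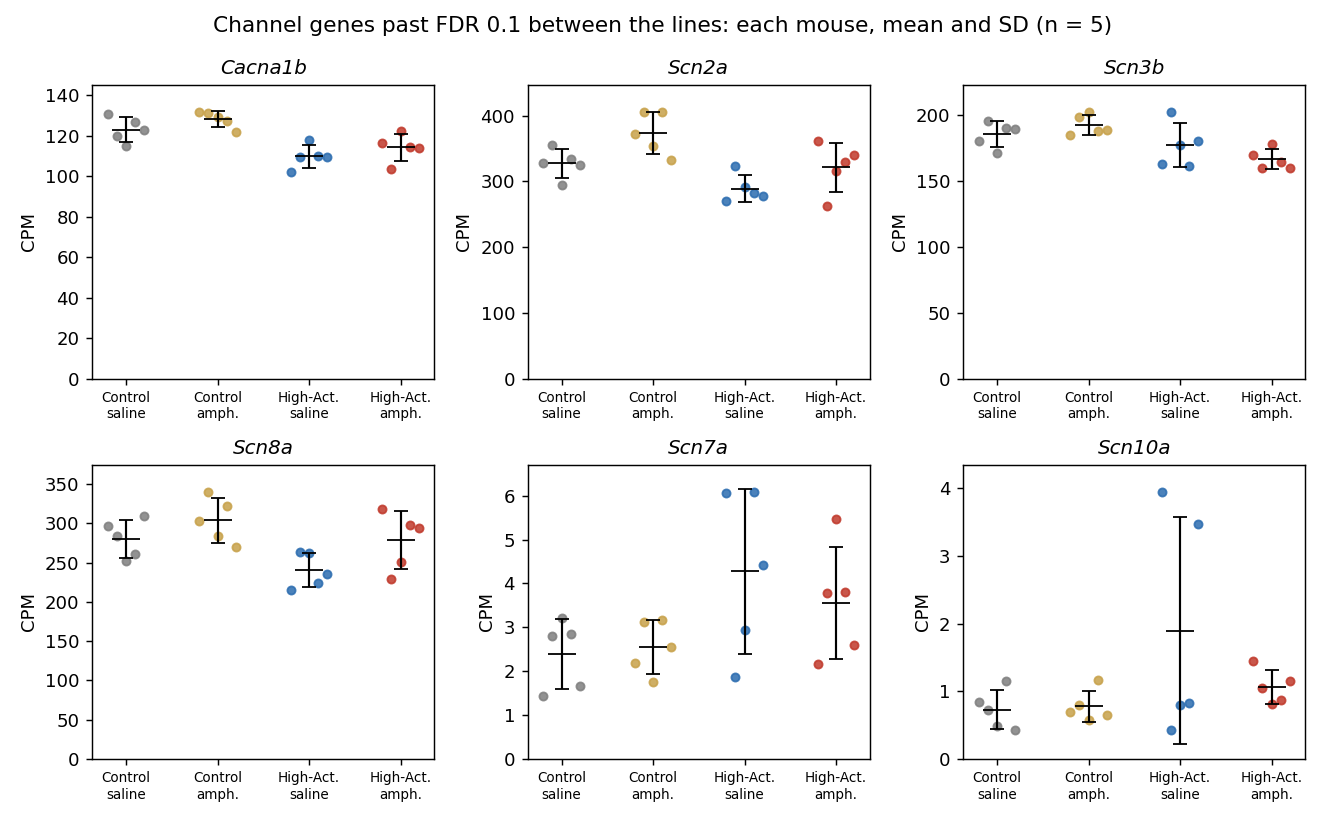
CPM of the 6 channel genes called between the lines, in each of the 4 groups; points are mice, bars the mean ± SD (n = 5), and each axis starts at 0. Cacna1b lies lower in both High-Active groups, and 2 High-Active saline mice carry the high values of Scn10a.

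The other tested genes are given by family. Among the calcium channel pores, 7 of 9 had negative values. Just outside the threshold were Cacna1i (-0.21, adjusted p = 0.107) and Cacna1c (-0.17, adjusted p = 0.11), followed by Cacna1d (-0.11, adjusted p = 0.151). Cacna1d shares 589 exonic bases with Chdh on the opposite strand, which had 195 to 474 reads. The P/Q-type pore Cacna1a (-0.11, adjusted p = 0.278) and the T-type pores Cacna1h (-0.10, adjusted p = 0.441) and Cacna1g (0.17, adjusted p = 0.307) did not pass the test, and neither did Cacna1e (-0.03, adjusted p = 0.874) and Cacna1s (0.18, adjusted p = 0.527).

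All 4 calcium channel beta subunits had negative values, and none passed the test: Cacnb3 was at -0.18 (adjusted p = 0.164), Cacnb4 at -0.12 (0.271), Cacnb1 at -0.12 (0.302) and Cacnb2 at -0.06 (0.573). The alpha2delta subunits went both ways. Cacna2d2, a target of gabapentin, was at 0.23 (adjusted p = 0.106), just outside the threshold, Cacna2d3 at -0.18 (adjusted p = 0.131), Cacna2d4 at 0.26 (adjusted p = 0.509) and Cacna2d1, the other gabapentin target, at 0.03 (adjusted p = 0.801).

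Among the sodium channels, the beta subunits Scn2b (0.05, adjusted p = 0.419) and the abundant Scn4b (-0.05, adjusted p = 0.812) did not pass the test. For Scn4b the SE was 0.115, so that a change as small as that of Cacna1b was not detectable. The remaining alpha subunits Scn9a (0.34, adjusted p = 0.152), Scn1a (0.07, adjusted p = 0.595) and Scn3a (-0.04, adjusted p = 0.702) did not pass either. Scn9a shares 180 exonic bases with the antisense gene Gm13629, which had 32 to 94 reads.

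With the cortical score in the model, 11 of the 14 genes with p under 0.05 had a smaller fold change, and for Cacna2d2, Cacnb3 and Scn9a, among others, it was under 0.5 times the first value. Cacna2d2, for example, went from 0.23 to 0.05. Of the channel genes, Cacna1b alone was called in that model (3.45%), where 3.08% of all genes were. With the medium spiny neuron score, 13 of the 14 were smaller and 2 were called (6.9%, against 8.63% of all genes), Cacna1b and, at 0.10, the beta subunit Scn2b. With the striatal interneuron score 8 were called (27.6%, against 11.6% of all genes), and with counts summed by parents 2 (6.9%, against 4.12%). Negative values made up 19 of 29 with the cortical score and 14 of 29 with the medium spiny neuron score.

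Within saline mice, the line difference was called for 2 of the 29 genes, both lower in High-Active mice (6.9%, against 3.74% of all genes called in either direction). At p under 0.05 there were 8 channel genes (27.6% against 17.4%), and DESeq2 called 4 (13.8% against 7.51%). High-Active saline mice also had the lowest cortical score, and a striatal interneuron score of 4.96 ± 0.189 against 5.24 ± 0.0696 (SD, n = 5) in Control saline mice. With either score in the model, 0 of the 29 were called. Calls over all 14792 genes also fell, from 553 to 77 with the cortical score and to 80 with the interneuron score.

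Cacna1b was among the genes called in saline mice (-0.16, adjusted p = 0.0831), with 115, 120, 123, 127 and 131 CPM in Control and 102, 109, 109.5, 110.1 and 118 CPM in High-Active mice. The groups overlapped, since High-Active mouse 499 lay above Control mouse 469, and the call was lost without mouse 197, 411, 477, 483, 871, 883 or 886 (adjusted p from 0.109 to 0.182). Cacna2d2 did not overlap between the lines in saline mice, as 4.23% of all genes did not: 88.6, 121, 128, 129.6 and 129.8 CPM in Control against 133, 142, 156, 174 and 178 CPM in High-Active mice. Its log2 fold change of 0.39 was just outside the threshold (adjusted p = 0.114) and was 0.13 with the cortical score.

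Within amphetamine mice the edgeR test called 0 channel genes and 1.3% of all genes. At p under 0.05 there were 7 (24.1% against 12.6%), and DESeq2 called 2 (6.9% against 3.12%). Scn3b came closest, with 186, 188, 189, 199 and 203 CPM in Control and 160.2, 160.4, 165, 170 and 179 CPM in High-Active mice. These groups did not overlap, as 2.94% of all genes did not, and the log2 fold change was -0.21 (SE 0.0562, adjusted p = 0.105).

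**Figure D4:**
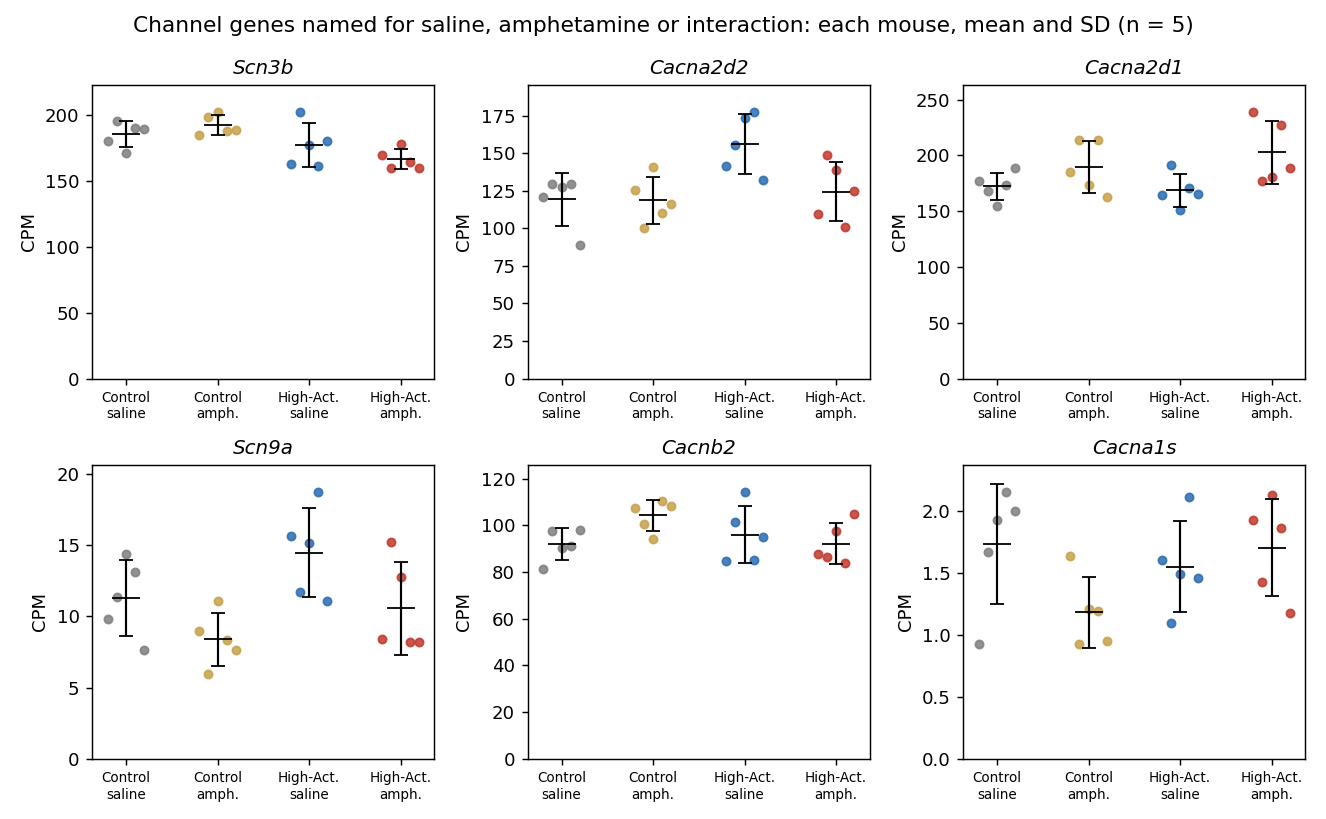
CPM of 6 channel genes named for the saline, amphetamine or interaction comparisons in the 4 groups; points are mice, bars the mean ± SD (n = 5), and each axis starts at 0. Cacna2d2 is highest in High-Active saline mice (133 to 178 CPM), and Scn3b is lower in High-Active than in Control amphetamine mice without overlap.

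The second question was the response 2 hours after amphetamine. Over both lines the edgeR test called 0 channel genes and 0 of all genes (0%). At p under 0.05 there were 7 channel genes (24.1%, against 12.5% of all genes), and DESeq2 called 1, Scn2a (3.45% against 2.64%). Fold changes were positive for 19 of 29 genes, with a median of 0.04 against -0.0067 over all genes. The 3 genes with the smallest p were Scn2a, Cacna2d1 and Scn9a.

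Scn2a had 294, 325, 328, 334 and 355 CPM in Control saline and 332, 354, 372, 405 and 406 CPM in Control amphetamine mice. In the High-Active line it had 271, 278, 282, 291 and 323 CPM after saline and 262, 316, 329, 340 and 362 CPM after amphetamine. Amphetamine mice lay higher in both lines apart from overlaps, and High-Active amphetamine mouse 415 was the lowest of all 20 mice. The log2 fold change was 0.17 (SE 0.0553, unadjusted p = 0.00537, adjusted p = 0.223), and it was 0.21 without mouse 415 (adjusted p = 0.0667). Leaving out this mouse changed the calls over all genes too, from 0 to 339 of 14762. Mouse 415 had the lowest cortical score of its group (3.26).

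Cacna2d1 averaged 171 CPM ± 12.9 after saline and 196 ± 25.5 after amphetamine (SD, n = 10), with 151 to 191 against 163 to 239 CPM. Its log2 fold change was 0.20 (SE 0.0664, unadjusted p = 0.0067, adjusted p = 0.232). Scn9a averaged 12.9 CPM ± 3.22 after saline and 9.48 ± 2.76 after amphetamine, with 7.64 to 18.8 against 5.92 to 15.3 CPM. Its log2 fold change was -0.44 (SE 0.15, unadjusted p = 0.00832, adjusted p = 0.248). It was -0.52 in the fit without mouse 415 (adjusted p = 0.0884), which called 339 of 14762 genes. The groups overlapped for both genes.

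The cortical marker score also differed by treatment, and 8 of the 9 cortical markers had a positive fold change after amphetamine (median 0.95). With the cortical score in the model, the fold changes were 0.12 for Scn2a, 0.10 for Cacna2d1 and -0.11 for Scn9a (adjusted p from 0.938 to 0.959).

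Line by line, no channel gene passed the threshold after amphetamine in Control mice (0% of all genes called) or in High-Active mice (0%). In Control mice 3 channel genes had an unadjusted p under 0.05 (10.3% against 6.35%) and DESeq2 called 0 (0.0406% of all genes). In High-Active mice there were 7 (24.1% against 8.43%), and DESeq2 called 1 (3.45% against 0.886%). These values come from fits without the cortical score, which averaged 3.44 after saline and 4.495 after amphetamine in High-Active mice, and 4.35 and 4.87 in Control mice. Of the 9 cortical markers, 7 had an unadjusted p under 0.05 after amphetamine in High-Active mice (median log2 fold change 1.44) and 0 in Control mice (0.46). Cacna2d1 was at 0.27 in High-Active mice (SE 0.0938, adjusted p = 0.414) and at 0.14 in Control mice (SE 0.0938, adjusted p = 0.827), and Cacna2d2 at -0.33 (SE 0.123, adjusted p = 0.444) and -0.01.

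**Figure D5:**
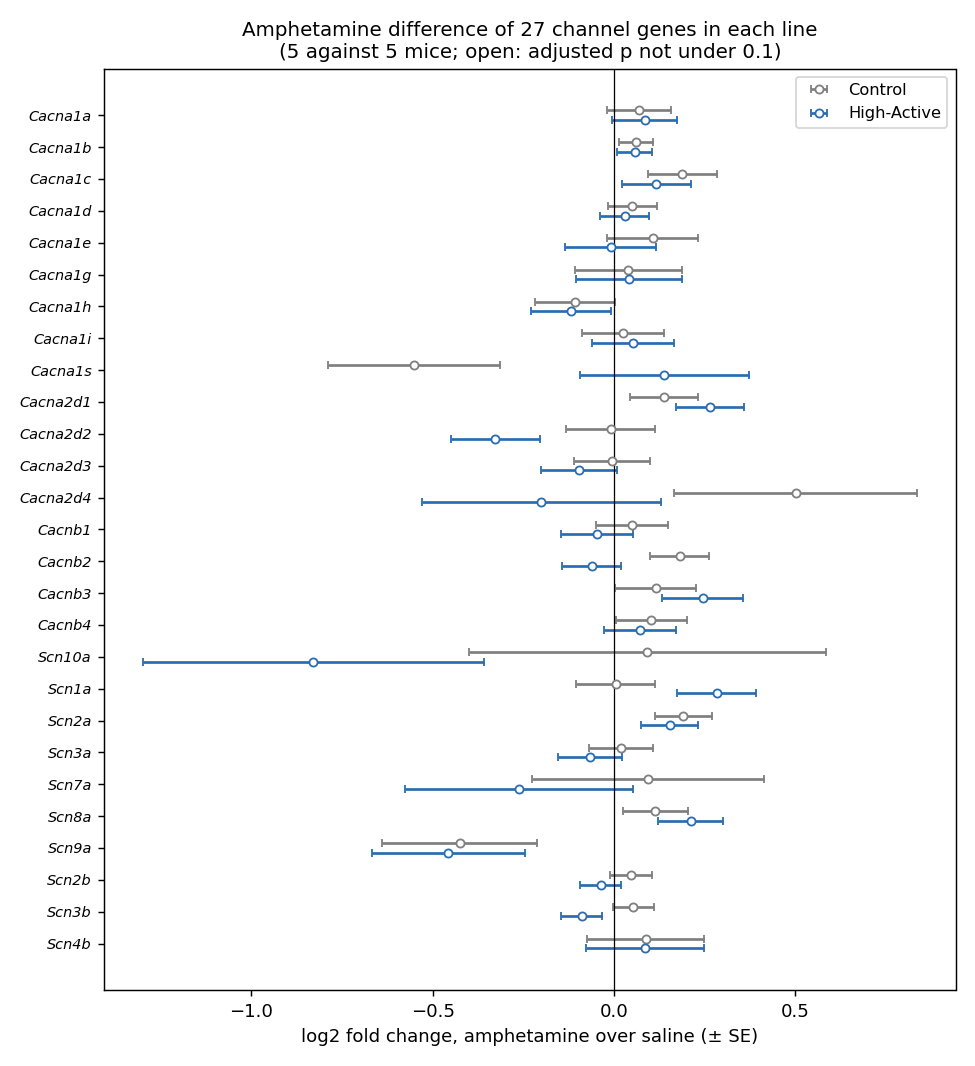
Log2 fold change of amphetamine over saline ± SE for 27 of the 29 channel genes, in Control (grey) and High-Active mice (blue), 5 against 5 mice each. All points are open since none passed the threshold; Cacna2d1 lies at 0.14 in Control and 0.27 in High-Active mice.

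The third question was whether the 2 lines differed in their response. The interaction was called for no channel gene and for no gene at all (0%), and DESeq2 called 0 (0%). At an unadjusted p under 0.05 there were 2 channel genes (6.9%, against 2.97%). Cacnb2, a calcium channel beta subunit, had a difference of responses of -0.24 (SE 0.115, unadjusted p = 0.0484, adjusted p = 1), and it shares 618 exonic bases with Gm10849 on the opposite strand, which had 8 to 25 reads. It averaged 91.9 CPM ± 6.84 and 104 ± 6.69 in Control mice after saline and amphetamine, and 96.1 ± 12.4 and 92.2 ± 8.86 in High-Active mice (SD, n = 5). Cacna1s had 0.69 (SE 0.334, unadjusted p = 0.0519, adjusted p = 1) on 29 to 118 reads per mouse and shares 1309 exonic bases with the antisense gene Gm37759, with Control means of 1.73 CPM ± 0.485 and 1.18 ± 0.287 and High-Active means of 1.55 ± 0.365 and 1.70 ± 0.392.

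Proteins that bind, place or regulate these channels were read from 5 lists, with counts for the line difference. Of the 10 fibroblast growth factor homologous factors and axon initial segment partners of sodium channels, 1 was lower, 9 had negative values and the median log2 fold change was -0.04. This gene was Nedd4l, a ubiquitin ligase that removes sodium channels from the membrane, at 236 CPM ± 21.5 in Control and 191 ± 29.7 in High-Active mice (-0.30, SE 0.0799, adjusted p = 0.0285). Of the 9 presynaptic partners of N-type and P/Q-type channels, 2 were lower and 8 had negative values (median -0.15). Stx1a, the syntaxin that binds both the channel and the fusion machinery, was at 76.6 CPM ± 16.2 and 55.2 ± 25.7 (-0.53, SE 0.169, adjusted p = 0.0599). Syt1, the calcium sensor of fast release, was at 1263 CPM ± 127 and 1143 ± 124 (-0.15, SE 0.0502, adjusted p = 0.0793).

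Of 12 tested calcium channel regulators among 13 listed, 2 were lower, 6 had negative values and the median was 0.01. Both were calmodulin genes, whose product gives calcium channels their calcium-dependent feedback. Calm2 was at 1531 CPM ± 93.9 and 1382 ± 93.9 (-0.15, SE 0.0427, adjusted p = 0.0425), and Calm3 at 1143 ± 55.6 and 1054 ± 86.9 (-0.12, SE 0.0429, adjusted p = 0.0946). The calmodulin genes encode the same protein and resemble each other, so reads could be shared among them. None of 5 tested gamma subunits and TARPs among 8 listed (median -0.04) and none of 4 genes of the sodium leak channel complex (median -0.07) was called. Over the 5 lists, 5 of the 40 genes tested were called (12.5%), all lower, against 6.9% of all genes called lower and 14.5% called in either direction. With the cortical score 0 of the 40 were called, against 3.08% of all genes in either direction.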

How the data were processed

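The striatal RNA of 20 mice was sequenced in paired ends after a stranded library preparation. Per the labels and the submitters' processing notes, the authors used CASAVA 1.8.2, TopHat2 2.0.10 with Bowtie2 2.1.0, SAMtools 0.1.19 and HTSeq 0.6.1 on GRCm38, and deposited whole-number read counts per Ensembl gene, 1 table per mouse. The strand setting of the counting is not given in the sources used here. HTSeq's summary lines (16.0 to 17.5% of each table's total) were left out. Symbols, positions and exonic lengths came from GENCODE M21, which matched 37607 of 39179 gene IDs, and promoters from RefSeq; protein sequences were not used here.

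Groups were taken from the labels. Genes over 1 CPM in at least 3 mice were kept, counts were then normalised by TMM, and a mean per group was fitted with edgeR 4.0.16 (R 4.3.3). The quasi-likelihood test replaced the study's robust likelihood-ratio test, and p-values were adjusted by the Benjamini-Hochberg method over 14792 genes, with a threshold of 0.1. Mice were treated as independent although some share parents. The script was tested on simulated data. Alternatives were DESeq2 1.42.0, limma 3.58.1 voom with parents as a block, the robust likelihood-ratio test, RLE normalisation, other filters, a threshold of 0.05, marker scores as covariates, counts summed by parents, and leaving out each mouse. The rule was to name every channel gene, to give by mouse those called between the lines, and to give the 3 with the smallest p for amphetamine and for the interaction and the called partner genes. Results of 2 of the channel genes are not reported here by name; they remain in the counts and medians. Genes named beyond this rule (Cacna2d2 and the other genes near the threshold) were chosen after their values were seen. The channel genes, marker lists and partner lists were chosen with earlier results of these data known.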

Additional observations from a re-analysis of the deposited data

Results flagged for a closer look

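In 116 groups of 5 mice (29 channel genes in 4 groups), 6 groups held a mouse whose gap to its nearest neighbour, as a share of the group's range, was above Dixon's critical value of 0.71. Gap and range were taken in log2 CPM, while the levels below are in CPM. That is 5.17% of the groups, and chance flags about 1 in 20. For Cacna1d, High-Active amphetamine mouse 415 was lowest, at 47.2 CPM against 54.9 to 57.0 CPM in the others (share 0.801). Control saline mouse 883 was highest for Cacna1i, at 155 CPM against 121 to 129 CPM (0.729), and lowest for Cacna2d2, at 88.6 CPM against 121 to 129.8 CPM (0.813).

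Scn1a, the sodium channel best known from fast-spiking interneurons, held 3 of the 6. Control saline mouse 411 was lowest at 144 CPM against 163 to 171 CPM (0.719), High-Active saline mouse 886 was lowest at 108 CPM against 160 to 175.0 CPM (0.812), and High-Active amphetamine mouse 192 was highest at 224 CPM against 175 to 185 CPM (0.761).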

How the results depend on the processing

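Sign changes were followed for the genes called over all mice or in saline mice, and for the 3 with the smallest p for amphetamine and interaction. None of these changed sign under any alternative. Other channel genes did: with the medium spiny neuron score, the line difference went from -0.03 to 0.07 for Cacna1e and from -0.06 to 0.01 for Cacnb2. Cacna1b passed the threshold between the lines in all 20 fits that left out 1 mouse (adjusted p from 0.00474 to 0.0132) and in all 12 other settings. Against 2 higher and 4 lower calls, there were 0 and 1 with the cortical score, 0 and 1 with the cortical and oligodendrocyte scores together, 0 and 2 with counts summed by parents, and 1 and 1 with the medium spiny neuron score. Cacna1b was the lower call each time, with Cacna2d3, not called before, beside it in the summed counts (adjusted p = 0.0588), and the higher call with the medium spiny neuron score was Scn2b (adjusted p = 0.0584), not Scn7a or Scn10a. Higher calls were 1 with no low-count filter, 0 with voom and 0 at a threshold of 0.05. Lower calls were 8 with DESeq2 and 8 with the likelihood-ratio test. Calls over all genes, in either direction, were 2149 of 14792 in the main fit. They were 2810 with DESeq2, 2269 with the likelihood-ratio test, 1872 with voom and 489 with the cortical and oligodendrocyte scores together. With no low-count filter they were 1893 of 26116. Leaving out 1 mouse gave 0 to 3 higher calls (0 without 197, 369, 411, 415, 457, 487 or 883, and 1 without 407, 409, 448, 469, 871 or 905) and 3 to 7 lower calls (7 without 477, 483 or 905). Over all genes these fits called from 1381 (without 415) to 2535 (without 477).

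In saline mice the 2 calls became 1 with no filter, 4 with DESeq2, 4 with the likelihood-ratio test, and 0 with the cortical score, both scores, the interneuron score or a threshold of 0.05, and 0 to 3 without 1 mouse (0 without 411, 871 or 883, and 1 without 197, 477 or 499). Over all genes the 553 saline calls became 447 with no filter, 1111 with DESeq2, 1091 with the likelihood-ratio test, 77 with the cortical score, 67 with both scores and 80 with the interneuron score. They became 350 without 411, 188 without 871, 187 without 883, 530 without 197, 691 without 477 and 313 without 499. In amphetamine mice the 0 channel calls became 2 with DESeq2, 1 with the likelihood-ratio test, 1 with the interneuron score, and 0 to 1 without 1 mouse (1 without 197, 469, 483, 487 or 871). Over all genes the 193 calls became 462 with DESeq2, 506 with the likelihood-ratio test and 184 with the interneuron score. Without 1 mouse they ran from 79 (without 415) to 200 (without 197). For amphetamine the 0 channel calls became 1 with DESeq2, 3 with the likelihood-ratio test and 0 to 2 without 1 mouse (2 without 415), and in High-Active mice 1 with DESeq2 and 1 with the likelihood-ratio test. Over all genes the 0 amphetamine calls became 391 with DESeq2, 458 with the likelihood-ratio test and 339 without 415. In High-Active mice they became 131 with DESeq2 and 280 with the likelihood-ratio test. Amphetamine in Control mice and the interaction gave 0 channel gene calls in every setting. A replicate block by family gave 0 calls for amphetamine, and the labels hold no replicate numbers. The 5 partner calls became 3 with no filter, 10 with DESeq2, 0 with the cortical score or both scores, 1 with counts summed by parents, 2 with the medium spiny neuron score, 2 with the interneuron score, 2 at 0.05, and 2 to 8 without 1 mouse (8 without 192 or 477, 3 without 407, 415, 454 or 499, and 2 without 411, 487, 871 or 883). Line calls over all genes were 455 with the cortical score, 489 with both scores and 609 with counts summed by parents. They were 1276 with the medium spiny neuron score and 1710 with the interneuron score. The medium spiny neuron and interneuron scores were chosen after seeing the data. The causes of these changes were not tested. The scarce genes Scn7a and Scn10a had 54 to 303 and 17 to 155 reads per mouse, and the part of depth in their calls was not tested.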
